A study of Mus musculus with 9 samples.

Results

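Beta cell dedifferentiation markers are genes that insulin-producing beta cells are reported to express when they lose their mature identity. Here they are the 10 genes Aldh1a3, Neurog3, Fev, Sox9, Gc, Myc, Mycl, Vim, Cd81 and Serpina7, chosen by symbol among 22048 genes, and all 10 were found in the count table by their Ensembl identifier. The genes were measured in cultured mouse islets of Langerhans, the clusters of hormone cells in the pancreas. Islets of ICR mice, an outbred wild-type strain, were kept for 3 days at 11.8, 20 or 35 mM glucose, with 3 libraries at each concentration. All groups shared the same RPMI medium with serum. The 11.8 mM group is the control, and the series describes the other two as hyperglycemic and extreme hyperglycemic. One free-text label names 25 mM as the highest concentration. Titles, sample characteristics and series design say 35 mM, and this value is used. The islets came from 9 mice, and the labels do not say that each library is a separate mouse, so the p-values cover the variation among these libraries alone, which may be technical.

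A beta cell is called dedifferentiated when it keeps an endocrine identity but turns down genes of glucose sensing and insulin production and turns on genes that are silent or low in the mature cell. Some of those genes belong to the embryonic endocrine progenitor, such as Neurog3, and others, such as Aldh1a3, have been described in beta cells of diabetic animals. In the living animal the state has been linked to prolonged high blood glucose, and the comparison of glucose concentrations asks how the transcripts of islet cells change with glucose in culture.

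Libraries were made with CEL-Seq2, which counts the 3′ end of transcripts. They held 3228648 to 4559561 gene counts and 13366 to 13923 detected genes. Values after ± are SDs of libraries for levels and standard errors for log2 fold changes. Levels are given in CPM, which scale the counts to library size after TMM normalization. Ins1 and Ins2, the insulin genes, and Gcg, the glucagon gene of alpha cells, were abundant in every group, with 174152 to 243670 CPM for Ins1, 218223 to 414254 CPM for Ins2 and 13184.9 to 16856.3 CPM for Gcg over the 9 libraries. Mafa, a defining transcription factor of mature beta cells, had 1 count over all 9 libraries. Kcnj11 and Glp1r, which encode the potassium channel subunit and the GLP-1 receptor of beta cells, had 3 counts each, so a listing near 0 does not show that a gene is silent. The islets are mixtures of cell types, and in bulk RNA fewer cells of a type and less RNA per cell cannot be told apart.

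None of the 10 markers passed the test at any concentration. The threshold was an adjusted p under 0.05 (Benjamini-Hochberg) by edgeR's quasi-likelihood test over the 9739 genes that passed the expression filter. Of the markers 8 were tested, and Myc and Mycl were too low. At 35 against 11.8 mM, 0 of 8 were called, against 0.863% of all genes tested, and 2 of 8 had an unadjusted p under 0.05, against 10.5% of all genes. At 20 against 11.8 mM, 0 of 8 were called, against 0.185% of all genes, and 1 of 8 had an unadjusted p under 0.05, against 7.97%. At 35 against 20 mM, 0 of 8 were called and 0 of 8 had an unadjusted p under 0.05, against 0.0308% and 5.29% of all genes. An F test for any difference over the 3 concentrations called 0 of 8, against 0.606% of all genes, with 2 of 8 at an unadjusted p under 0.05, against 9.05%. DESeq2 called 1 marker, Gc, at 20 against 11.8 mM and in its test over the 3 concentrations, and 0 in the other comparisons. The median log2 fold change of the 8 tested markers was 0.27 at 35 against 11.8 mM, where that of all genes was -0.003, and 0.08 at 20 against 11.8 mM, where that of all genes was -0.002. With 8 genes, these medians are a description only. All libraries at 35 mM lay wholly above the 11.8 mM libraries for 1 of 8 markers and wholly below for 0, against 8.22% and 6.69% of all genes. The 20 mM libraries lay wholly above the 11.8 mM libraries for 2 of 8 and wholly below for 0, against 6.79% and 6.04%. At 35 mM the libraries lay wholly above those at 20 mM for 1 of 8 and wholly below for 0, against 6.15% and 5.76%. Serpina7 was the marker wholly higher at 35 mM in both comparisons. It passed the expression filter through libraries at 20 and 35 mM and none at 11.8 mM. Serpina7 is also among the markers with an unadjusted p under 0.05 at 35 against 11.8 mM and by the F test. The counts that include it are therefore a description.

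**Figure D1:**
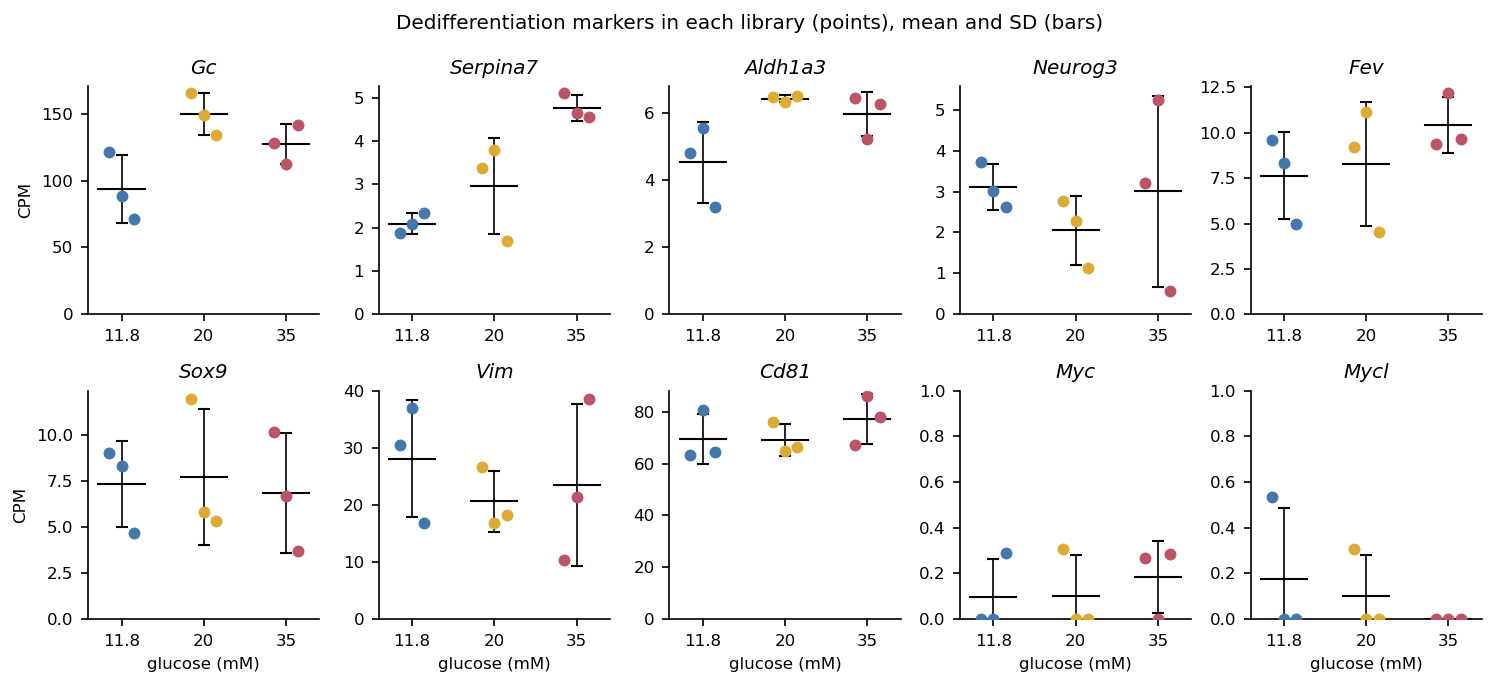
Level of each of the 10 markers in CPM (vertical axes, linear, each with its own scale) at 11.8, 20 and 35 mM glucose. Points are libraries, long horizontal bars are means and vertical bars are SDs of 3 libraries. All 3 libraries at 20 mM lie above all 3 at 11.8 mM for Gc and Aldh1a3, all 3 at 35 mM lie above all others for Serpina7, and Myc and Mycl are near 0.

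Gc and Serpina7 encode secreted carrier proteins of the blood, made mainly by the liver. Gc is the vitamin D binding protein, and in mouse islets it is also a gene of alpha cells. Gc lies on chromosome 5 of GRCm38 at 89417522 to 89457898, on the minus strand. Serpina7 encodes thyroxine-binding globulin and lies on chromosome X at 139079257 to 139085236, also on the minus strand. Their exons overlap no other annotated gene. They are the 2 markers with the smallest p of the F test, so their start regions are shown, taken from RefSeq on GRCm38.p6 as the 250 bases before the gene start, 5′ to 3′ on the gene's strand. The windows are chr5:89457899-89458148 for Gc and chrX:139085237-139085486 for Serpina7, the first of 2 listed windows for Serpina7. Capitals mark the letters GTTAAT, the core of the motif bound by the liver and islet factor HNF1.
Gc: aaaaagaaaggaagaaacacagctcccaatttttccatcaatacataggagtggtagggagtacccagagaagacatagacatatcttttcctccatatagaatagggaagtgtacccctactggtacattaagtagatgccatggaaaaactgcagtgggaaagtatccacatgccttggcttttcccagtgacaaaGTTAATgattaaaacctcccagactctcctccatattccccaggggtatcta
Serpina7: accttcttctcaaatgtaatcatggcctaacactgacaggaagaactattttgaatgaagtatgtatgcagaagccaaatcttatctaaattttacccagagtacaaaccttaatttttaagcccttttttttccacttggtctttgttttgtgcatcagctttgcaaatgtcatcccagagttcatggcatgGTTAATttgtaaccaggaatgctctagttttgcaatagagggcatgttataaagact

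The GTTAAT letters begin 52 bases before the start of Gc and 57 bases before that of Serpina7. On either strand they occur in 2 of the 7 markers with a listed window and in 6.43% of all 32851 windows of the same length. This motif was one of 10 searched, and it was picked for display after the matches were seen. Another 4 of the 10 were longer forms of the HNF1 motif that begin with the same letters. The 2 shorter of these were found in Gc alone among the markers, at the place marked above, and in 0.371% and 0.134% of all windows, and the 2 longest were found in no marker. The letters CACGTG, the E-box bound by Myc with its partner Max, were in 0 of 7 marker windows and in 6.02% of all windows. CANNTG, the looser form that includes CACGTG, was in 5 of 7 and in 66.2% of all windows. TATAAA was in 3 of 7, Serpina7 among them, and in 12.4% of all windows. CCGCCC was in 3 of 7 and in 32.7%, and TGACGTCA was in 0 of 7 and in 1.55%. A match is a description of letters and not evidence of binding.

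Gc had 121, 88.4 and 71.7 CPM in the 11.8 mM libraries, 166, 149 and 134 CPM in the 20 mM libraries and 129, 112 and 142 CPM in the 35 mM libraries. The 20 mM libraries were all above the 11.8 mM libraries, while the 35 mM libraries overlapped both other groups. The means were 93.8 ± 25.2 CPM at 11.8 mM, 149.8 ± 15.9 CPM at 20 mM and 127.5 ± 14.7 CPM at 35 mM (SD, n = 3 libraries each), so that the order of the means was 11.8, 35 and 20 mM. The log2 fold change at 20 against 11.8 mM was 0.67 ± 0.16 (SE), with a 95% interval of 0.36 to 0.99 and adjusted p = 0.0646 by edgeR's quasi-likelihood test. At 35 against 11.8 mM it was 0.44 ± 0.16, with an interval of 0.12 to 0.76 and adjusted p = 0.259. The 35 and 20 mM groups differed by -0.23 on the log2 scale, with an interval of -0.55 to 0.08.

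The call of Gc at 20 mM depended on the setting. It was called in 3 of 17 alternative settings, with no expression filter (adjusted p = 0.00244), with the DESeq2 test (adjusted p = 0.00236) and without 11.8 mM replicate 1 (adjusted p = 0.00158, log2 fold change 0.90), and over all 17 the adjusted p ran from 0.00158 to 0.387. That replicate had the highest Gc of the control libraries. At 35 against 11.8 mM, Gc was called in 1 of 17 settings, without 11.8 mM replicate 1, with a log2 fold change of 0.67 and adjusted p = 0.0126, and the adjusted p ran up to 0.664. Without 11.8 mM replicate 3, which had the lowest Gc, the log2 fold changes were 0.51 at 20 mM and 0.28 at 35 mM, and neither was called.

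The 10 alpha cell markers, which include Gcg, were summed beside Gc. Their summed level was 16646.5 to 17982.9 CPM at 11.8 mM, 14851.8 to 18547.1 CPM at 20 mM and 14801.2 to 16759 CPM at 35 mM, and these ranges overlap. Most of the sum is Gcg, which averaged 13784 ± 926 CPM at 35 mM and 16300 ± 708 CPM at 11.8 mM, with the 35 mM libraries wholly lower (log2 fold change -0.24 ± 0.13, adjusted p = 0.556 by edgeR's quasi-likelihood test). Tm4sf4, a membrane protein of alpha cells, averaged 80.4 ± 9.39 CPM at 11.8 mM, 119 ± 22 CPM at 20 mM and 104 ± 6.40 CPM at 35 mM. Its 20 and 35 mM libraries lay above all 11.8 mM libraries, but it was not called at 20 mM (log2 fold change 0.57 ± 0.14, adjusted p = 0.0983) or at 35 mM (0.37 ± 0.14, adjusted p = 0.334). Both are named after their values were seen, and the part of alpha cells in the Gc level was not tested. None of the 10 alpha cell markers was at 0, and all were tested. At 35 and at 20 against 11.8 mM 1 was called, where 0.863% and 0.185% of all genes were called. That gene was Ttr, which is described with the hormone carriers.

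Serpina7 had 7, 9 and 8 counts at 11.8 mM, 11, 15 and 6 at 20 mM and 19, 16 and 16 at 35 mM. In CPM these were 1.87, 2.08 and 2.33 at 11.8 mM, 3.39, 3.79 and 1.69 at 20 mM and 5.10, 4.65 and 4.55 at 35 mM. Every 35 mM library was above every other library, and the 20 mM libraries spread across the range of the 11.8 mM ones. The means were 2.09 ± 0.23 CPM at 11.8 mM, 2.96 ± 1.11 CPM at 20 mM and 4.76 ± 0.29 CPM at 35 mM. Serpina7 passed the expression filter through libraries at 20 and 35 mM and none at 11.8 mM. Its fold and its lack of overlap are therefore a description of a gene admitted where it is high. At 35 against 11.8 mM the fold was 2.26, with a 95% interval of 1.25 to 4.09 and adjusted p = 0.259 by edgeR's quasi-likelihood test. Serpina7 was not called in any of the 16 alternative settings that tested it, over which the adjusted p ran from 0.245 to 0.521. At 35 against 20 mM the log2 fold change was 0.68, with an interval of -0.14 to 1.49.

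Each library is the sum of 3 barcoded sub-libraries, and these show how few reads carry the Serpina7 values. Counts per sub-library were 1 to 4 at 11.8 mM, 1 to 8 at 20 mM and 2 to 10 at 35 mM. Gc had 78 to 181 counts per sub-library at 11.8 mM, 117 to 240 at 20 mM and 90 to 203 at 35 mM. Within the 35 mM replicate 1 library Gc ran from 90.5 to 183 CPM without TMM scaling. The other 35 mM libraries ran from 100.4 to 113 and from 107 to 158.

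**Figure D2:**
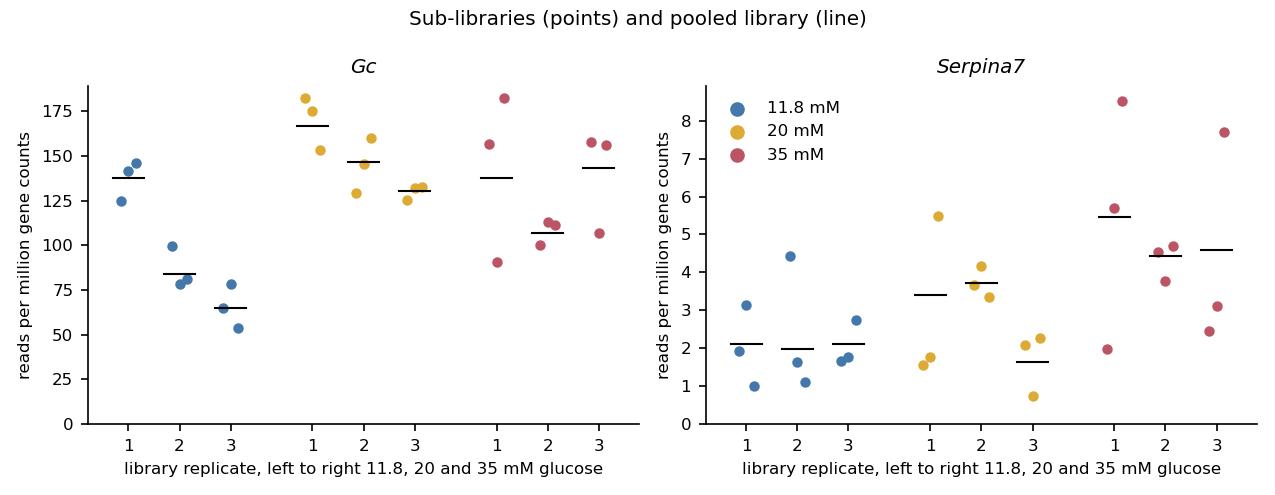
Gc (left) and Serpina7 (right) in each of the 27 sub-libraries, in CPM without TMM scaling on linear vertical axes. Points are the 3 sub-libraries of each library, lines are the summed library, and replicates 1 to 3 are shown for 11.8, 20 and 35 mM from left to right. Serpina7 points at 35 mM reach down into the range of the 11.8 mM points, with 2 to 10 counts each against 1 to 4.

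The genes that transport, activate or sense the ligands of these carriers were counted from a list of 13 genes of vitamin D and thyroid hormone binding and response. Of them 6 were tested, and 1 rose and 0 fell at 35 and at 20 against 11.8 mM, where 0.863% and 0.185% of all genes were called. The gene that rose was Ttr, which encodes transthyretin, a carrier of thyroxine that alpha cells also make. Ttr averaged 1495 ± 214 CPM at 35 mM and 937 ± 25.9 CPM at 11.8 mM, a log2 fold change of 0.67 ± 0.13 and an adjusted p of 0.00527 by edgeR's quasi-likelihood test. The call at 35 mM was lost without 35 mM replicate 3 (log2 fold change 0.57, adjusted p = 0.0617). At 20 mM Ttr averaged 1416 ± 139 CPM, with a log2 fold change of 0.60 and adjusted p = 0.0489 against 11.8 mM, and this call was lost in 14 of 17 alternative settings. The rise of Ttr was already known when the list was written. At 35 against 20 mM none passed, and the smallest p was that of Vdr, the vitamin D receptor, with a log2 difference of 0.22 ± 0.15.

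Aldh1a3 encodes a retinaldehyde dehydrogenase, which makes retinoic acid from retinaldehyde, and it lies on chromosome 7 at 66390890 to 66427517. It had 4.80, 5.56 and 3.20 CPM at 11.8 mM, 6.47, 6.32 and 6.49 CPM at 20 mM and 6.44, 5.23 and 6.25 CPM at 35 mM, from 11 to 25 counts a library. The 20 mM libraries were close together and above the 11.8 mM libraries, while 1 of the 35 mM libraries lay among the 11.8 mM ones. The log2 fold change was 0.49 ± 0.31 at 20 against 11.8 mM (95% interval -0.15 to 1.12, adjusted p = 0.735) and 0.38 ± 0.31 at 35 against 11.8 mM (interval -0.26 to 1.02, adjusted p = 0.753) by edgeR's quasi-likelihood test. The intervals hold both no change and a doubling, so they show neither a change nor its absence.

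The retinoid pathway around Aldh1a3 was counted over 18 genes of retinol transport, retinaldehyde and retinoic acid metabolism and retinoic acid receptors. Of these 8 were tested, and 0 rose and 0 fell in each comparison, where 0.0308% to 0.863% of all genes were called. For 35 against 11.8 mM the smallest p was that of Dhrs3, a reductase that turns retinaldehyde back into retinol, with 3.69 ± 1.62 CPM at 35 mM and 7.24 ± 1.48 CPM at 11.8 mM. Its log2 fold change was -0.97 ± 0.35, with no overlap of libraries and adjusted p = 0.27. Next came Rbp4, the retinol binding protein of plasma, which is also in the delta cell marker list (log2 fold change -0.32 ± 0.13). At 20 against 11.8 mM the smallest p were those of Dhrs3 (log2 fold change -0.55 ± 0.33) and of the retinoid X receptor Rxra (log2 fold change -0.46 ± 0.29). At 35 against 20 mM they were those of Rxrb (log2 fold change 0.54 ± 0.24) and of the retinoic acid receptor Rarg (log2 fold change 0.35 ± 0.26).

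Neurog3, Fev and Sox9 are transcription factors of the embryonic pancreas. Neurog3 starts the endocrine programme in progenitors, Fev follows it in endocrine precursors and later belongs to serotonin-producing cells, and Sox9 keeps pancreatic progenitors and adult duct cells. Neurog3 is a single-exon gene on chromosome 10 at 62133090 to 62134763, and it shares 273 exon bases with Fam241b on the opposite strand. The counting strand is not given in the sources used here, so reads of the 2 genes may not be separable. Neurog3 had 14, 13 and 9 counts at 11.8 mM, 9, 9 and 4 at 20 mM and 12, 18 and 2 at 35 mM. The 35 mM libraries held both the highest and the lowest value, 5.23 and 0.568 CPM, and no group stood apart. The log2 fold change was -0.06 at 35 against 11.8 mM, with an interval of -1.10 to 0.98, and -0.60 at 20 against 11.8 mM, with an interval of -1.71 to 0.50.

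Fev, on chromosome 1 at 74881509 to 74885419, had 9.59, 8.33 and 4.95 CPM at 11.8 mM, 9.24, 11.1 and 4.51 CPM at 20 mM and 9.39, 12.2 and 9.66 CPM at 35 mM. The lowest libraries were replicate 3 at 11.8 mM and replicate 3 at 20 mM, and the 35 mM libraries lay among or above the rest. Fev differed by 0.43 ± 0.30 on the log2 scale at 35 against 11.8 mM (interval -0.17 to 1.04, adjusted p = 0.68) and by 0.12 ± 0.30 at 20 against 11.8 mM by edgeR's quasi-likelihood test.

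Sox9, on chromosome 11 at 112782224 to 112787760, had 9.06, 8.33 and 4.66 CPM at 11.8 mM, 12.0, 5.81 and 5.36 CPM at 20 mM and 10.2, 6.68 and 3.69 CPM at 35 mM. The 3 groups overlapped over almost their whole range. The log2 fold change was -0.11 at 35 against 11.8 mM (interval -0.84 to 0.63) and 0.04 at 20 against 11.8 mM (interval -0.69 to 0.77). The 12 duct cell markers summed to 302.7 to 471 CPM at 11.8 mM, 353 to 489 CPM at 20 mM and 447 to 480 CPM at 35 mM. Of the 10 duct markers tested 0 were called in any comparison, where 0.0308% to 0.863% of all genes were called. None of the 12 was at 0, and the part of duct cells in the Sox9 level was not tested.

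Other factors of the endocrine progenitor programme were counted over 16 genes, of which 13 were tested. In each comparison 0 rose and 0 fell, where 0.0308% to 0.863% of all genes were called. The median log2 fold change of the list was 0.04 at 35 against 11.8 mM and -0.13 at 20 against 11.8 mM. In the 35 against 11.8 mM comparison the smallest p were those of Rfx6, a factor of endocrine differentiation (log2 fold change -0.41 ± 0.23), and of Hes6, a gene of the Notch and bHLH pathway (log2 fold change 0.28 ± 0.17). At 20 against 11.8 mM they were those of the corepressors Cbfa2t3 (log2 fold change -0.31 ± 0.17) and Runx1t1 (log2 fold change -0.27 ± 0.17). For 35 against 20 mM they were those of Runx1t1 (log2 fold change 0.22 ± 0.17) and Rfx6 (log2 fold change -0.28 ± 0.23). Pax4, a factor that favours the beta cell fate, had 0 counts in all 9 libraries.

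**Figure D3:**
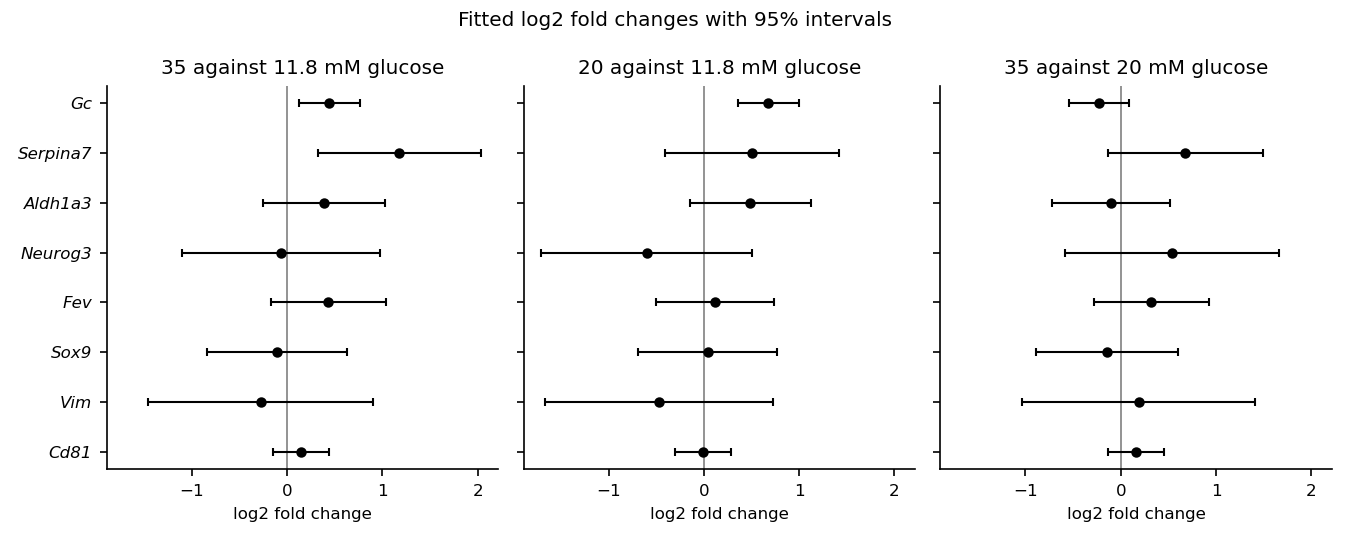
Fitted log2 fold changes of the 8 tested markers (points) with 95% intervals (horizontal bars) at 35 against 11.8 mM, 20 against 11.8 mM and 35 against 20 mM glucose. The intervals of Gc in the first 2 panels and of Serpina7 in the first lie above 0, and those of Neurog3 and Vim are the widest in each panel.

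Myc and Mycl encode growth-promoting transcription factors that bind DNA together with Max. Myc lies on chromosome 15 at 61985391 to 61990374, and Mycl on chromosome 4 at 122995652 to 123002485. Myc had 0, 0 and 1 count at 11.8 mM, 1, 0 and 0 at 20 mM and 1, 0 and 1 at 35 mM. Mycl had 2, 0 and 0 counts at 11.8 mM, 1, 0 and 0 at 20 mM and 0 in each library at 35 mM. All of these are under 3 counts a library, the limit that a count of 0 allows, which corresponds to 0.694 to 0.924 CPM. No fold is given for them, and a change was not detectable at this depth.

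Downstream and partner genes of Myc were measured better. Of 10 partners and antagonists of Myc, 9 were tested, with a median log2 fold change of -0.19 at 35 against 11.8 mM. In each comparison 0 rose or fell, where 0.0308% to 0.863% of all genes were called. The smallest p at 35 against 11.8 mM were those of Zbtb17, a zinc finger partner of Myc (log2 fold change -0.63 ± 0.36), and of Mga, a Max partner (log2 fold change -0.36 ± 0.25). At 20 against 11.8 mM they were those of the antagonist Mxd4 (log2 fold change -0.33 ± 0.17) and of Fbxw7, which marks Myc for degradation (log2 fold change -0.25 ± 0.18). In the 35 against 20 mM comparison they were those of Zbtb17 (log2 fold change -0.38 ± 0.37) and Max (log2 fold change -0.17 ± 0.19).

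Of 20 genes known as Myc targets, 18 were tested. For 35 against 11.8 mM 2 rose, 0 fell and 16 did not pass, where 0.863% of all genes were called, and the median log2 fold change was -0.10. Both that rose, Odc1 and Srm, encode enzymes of polyamine synthesis, and their values were known when the list was written. Odc1, ornithine decarboxylase, averaged 60.9 ± 12.7 CPM at 35 mM and 38.9 ± 5.65 CPM at 11.8 mM, a log2 fold change of 0.64 ± 0.16 and an adjusted p of 0.0444 by edgeR's quasi-likelihood test. Srm, spermidine synthase, averaged 84.1 ± 6.57 CPM at 35 mM and 54.5 ± 10.8 CPM at 11.8 mM, a log2 fold change of 0.62 ± 0.15 and an adjusted p of 0.0317. Odc1 lost its call in 9 of 17 alternative settings, with adjusted p up to 0.42 (without 35 mM replicate 1), and Srm in 6 of 17, with adjusted p up to 0.227 (without 11.8 mM replicate 3). Among the settings that ended the call of Odc1 were the fit of only the 2 concentrations (0.0839), the fit without the sub-library of odd insulin share (0.0828), and those that left out 11.8 mM replicate 1 (0.0705), 11.8 mM replicate 3 (0.226), 20 mM replicate 1 (0.056), 20 mM replicate 2 (0.0554), 35 mM replicate 1 and 35 mM replicate 3 (0.0617). For Srm they were the fit of only the 2 concentrations (0.0645), the fit without the sub-library of odd insulin share (0.0578), and those that left out 11.8 mM replicate 2 (0.0858), 11.8 mM replicate 3, 35 mM replicate 1 (0.204) and 35 mM replicate 2 (0.123). For 20 against 11.8 mM 0 of the 18 passed, and the smallest p were those of Odc1 (log2 fold change 0.66 ± 0.16) and Srm (log2 fold change 0.46 ± 0.15), both with no overlap of libraries. For Srm the gap was slight, with 65.9 CPM in the lowest 20 mM library and 65.8 CPM in the highest 11.8 mM library. For 35 against 20 mM 0 passed, and the smallest p were those of Dkc1, a ribosomal RNA modifying enzyme (log2 fold change -0.64 ± 0.27), and Npm1, a nucleolar chaperone (log2 fold change -0.19 ± 0.13).

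Vim encodes vimentin, an intermediate filament protein of mesenchymal cells such as fibroblasts. It lies on chromosome 2 at 13573927 to 13582826. Vim had 30.6, 37.0 and 16.9 CPM at 11.8 mM, 26.8, 16.9 and 18.3 CPM at 20 mM and 10.5, 21.5 and 38.6 CPM at 35 mM. The 35 mM libraries held both the lowest and the highest value of the 9. The log2 fold change was -0.28 ± 0.49 at 35 against 11.8 mM (interval -1.46 to 0.90, adjusted p = 0.909) and -0.47 ± 0.50 at 20 against 11.8 mM (interval -1.66 to 0.73, adjusted p = 0.903) by edgeR's quasi-likelihood test.

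Markers of other cells that express Vim were summed in the same libraries. The 12 fibroblast and stellate cell markers summed to 606, 662 and 398 CPM at 11.8 mM, 445, 405 and 299 CPM at 20 mM and 273, 418 and 492 CPM at 35 mM. The 8 Schwann and glial cell markers summed to 68.8, 55.1 and 28.8 CPM at 11.8 mM, 73.6, 46.2 and 47.1 CPM at 20 mM and 22.8, 43.3 and 112 CPM at 35 mM. Within the 35 mM group, replicate 1 was the lowest and replicate 3 the highest for Vim and for both sums, and within the 11.8 mM group replicate 3 was the lowest for all 3. The orders differed elsewhere. At 11.8 mM Vim and the fibroblast sum were highest in replicate 2 and the glial sum in replicate 1, and at 20 mM Vim and the glial sum were lowest in replicate 2 and the fibroblast sum in replicate 3. Of these markers 0 of 10 tested fibroblast genes and 0 of 5 tested glial genes were called in any comparison. Of all genes 0.0308% to 0.863% were called, and none of either list was at 0 in every library. At 35 mM the 12 macrophage and other immune cell markers summed to 189, 138 and 151 CPM, highest in replicate 1. The 10 endothelial cell markers summed to 17.7, 24.7 and 19.0 CPM there, lowest in replicate 1 and highest in replicate 2. The part of any of these cells in the Vim level was not tested.

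**Figure D4:**
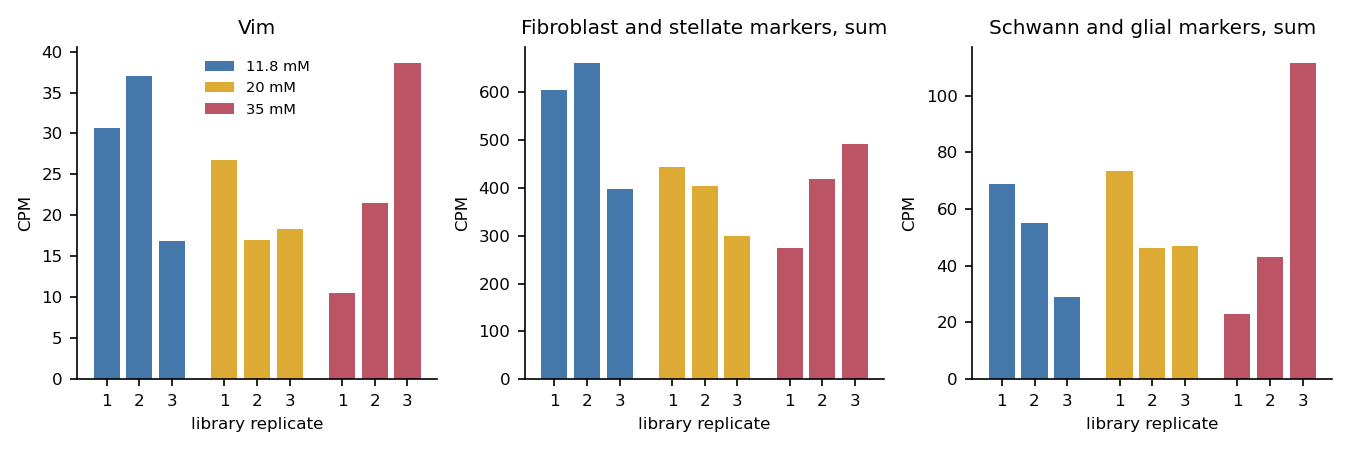
Vim (left), the summed fibroblast and stellate cell markers (middle) and the summed Schwann and glial cell markers (right), in CPM on linear axes from 0. Bars are single libraries, replicates 1 to 3 at 11.8, 20 and 35 mM from left to right. In the 35 mM group all 3 measures are lowest in replicate 1 and highest in replicate 3.

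Cd81 encodes a tetraspanin, a membrane protein that organises other surface proteins and that has been used to mark immature or stressed beta cells. It lies on chromosome 7 at 143052739 to 143067934 and shares 104 exon bases with the transcript R74862 on the opposite strand. Cd81 had 63.4, 80.6 and 64.7 CPM at 11.8 mM, 76.1, 64.7 and 66.6 CPM at 20 mM and 67.1, 86.2 and 78.1 CPM at 35 mM. The 3 groups overlapped. Its log2 fold change was 0.15 ± 0.14 at 35 against 11.8 mM and -0.01 ± 0.14 at 20 against 11.8 mM. The intervals, -0.15 to 0.44 and -0.31 to 0.28, were the narrowest among the tested markers and reach to a fold of 1.36 and 1.22.

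Of 10 tetraspanins and Cd81 partners, 9 were tested and 0 rose or fell in any comparison, where 0.0308% to 0.863% of all genes were called. In the 35 against 11.8 mM comparison the smallest p were those of the tetraspanins Cd151 and Tspan7. Cd151 averaged 104 ± 2.07 CPM at 35 mM and 69.8 ± 17.7 CPM at 11.8 mM, with a log2 fold change of 0.57 ± 0.16 and adjusted p = 0.115. Tspan7 averaged 101 ± 11.0 CPM at 35 mM and 74.4 ± 10.0 CPM at 11.8 mM, with a log2 fold change of 0.45 ± 0.14 and adjusted p = 0.162. The 35 mM libraries lay wholly above the 11.8 mM libraries for both, and wholly below for 1 other of the 9 tested. The shares of all genes were 8.22% and 6.69%. In the 20 against 11.8 mM comparison the smallest p were those of Cd151 (log2 fold change 0.41 ± 0.16) and of the partner Igsf8 (log2 fold change -0.39 ± 0.18), and at 35 against 20 mM those of Tspan7 (log2 fold change 0.25 ± 0.14) and of the tetraspanin Cd9 (log2 fold change -0.41 ± 0.23).

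Among other genes reported in dedifferentiated or immature beta cells, the gut hormones Cck and Gast rose at 35 mM. The list held 18 genes, of which 12 were tested. For 35 against 11.8 mM 2 rose, 0 fell and 10 did not pass, where 0.863% of all genes were called. None passed at 20 against 11.8 mM or at 35 against 20 mM, where 0.185% and 0.0308% of all genes were called. Both rises were known when the list was written, so the count is a description. Cck, cholecystokinin, had 3.73, 4.17 and 2.33 CPM at 11.8 mM, 13.5, 6.82 and 5.36 CPM at 20 mM and 13.1, 9.29 and 17.0 CPM at 35 mM. The 20 and 35 mM libraries were all above those at 11.8 mM. Cck was 3.78-fold higher at 35 against 11.8 mM, a log2 fold change of 1.92 ± 0.34 with adjusted p = 0.00207 by edgeR's quasi-likelihood test, and was called in all 17 alternative settings with adjusted p up to 0.0278. For 20 against 11.8 mM its log2 fold change was 1.28 ± 0.36 with adjusted p = 0.184, and 1 of 17 settings called it, the fit without an expression filter (adjusted p = 0.035).

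Gast, gastrin, which fetal islets express, had 4.26, 5.32 and 2.04 CPM at 11.8 mM, 8.31, 7.08 and 3.10 CPM at 20 mM and 9.66, 12.8 and 10.2 CPM at 35 mM. Every 35 mM library was above every other library. In the 35 against 11.8 mM comparison the log2 fold change was 1.45 ± 0.34 with adjusted p = 0.0241 by edgeR's quasi-likelihood test. The call was lost without 11.8 mM replicate 3 (adjusted p = 0.185), without 35 mM replicate 1 (0.0652), 2 (0.151) or 3 (0.0566) and without the sub-library of odd insulin share (0.094), with log2 fold changes of 1.16 to 1.53. Aass, an enzyme of lysine breakdown, had the smallest p after Cck at 20 against 11.8 mM, with 9.37 ± 0.84 CPM at 20 mM and 4.76 ± 2.83 CPM at 11.8 mM and a log2 fold change of 0.99 ± 0.34 (adjusted p = 0.361). In the 35 against 20 mM comparison the smallest p were those of Gast (log2 fold change 0.82 ± 0.32) and Cck (log2 fold change 0.64 ± 0.30).

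Slc5a10, a sodium-dependent sugar transporter, and Tnfrsf11b, osteoprotegerin, are on the same list and are named here after their values were seen. Slc5a10 had 0, 0 and 1 counts at 11.8 mM, 1, 3 and 2 at 20 mM and 13, 11 and 9 at 35 mM. The 35 mM libraries stood apart, but the gene fell below the expression filter and so has no value in the fit over 9739 genes. Without an expression filter it was called at 35 against 11.8 mM (adjusted p = 8.59e-04), while the DESeq2 test gave it no adjusted p. Fits with a library left out that tested it admitted it through the 35 mM libraries, where it is high, so their calls are not counted. Its fitted fold depends on the prior count because the 11.8 mM libraries hold 1 count in all, so none is given. Its exons overlap Fam83g by 393 bases and Grap by 4 bases on the opposite strand. Tnfrsf11b had 1.75 ± 1.09 CPM at 11.8 mM, 3.80 ± 0.62 CPM at 20 mM and 2.52 ± 0.55 CPM at 35 mM, and was not called.

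**Figure D5:**
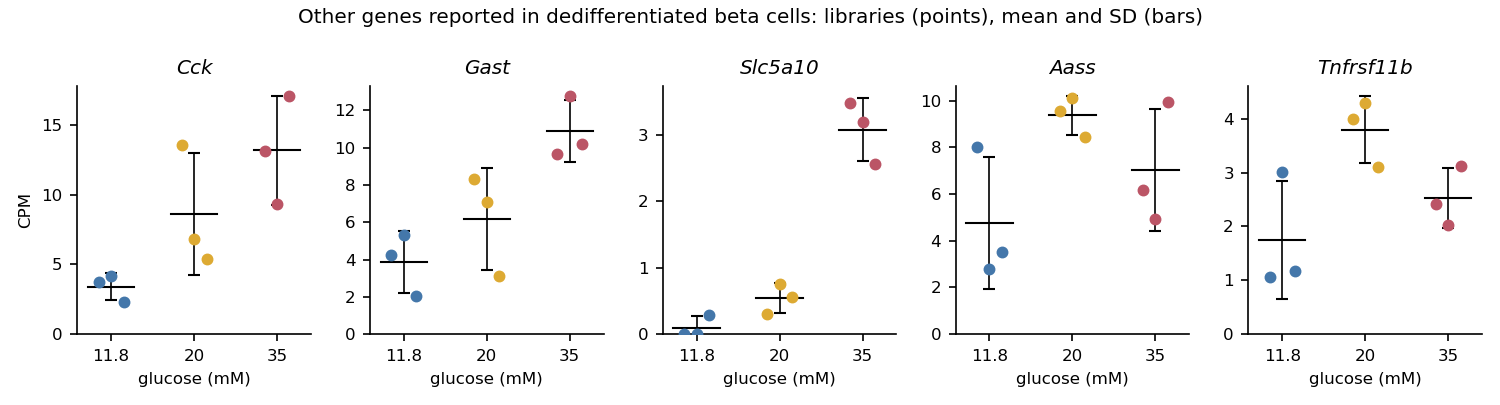
Cck, Gast, Slc5a10, Aass and Tnfrsf11b in CPM (vertical axes, linear, each with its own scale) at 11.8, 20 and 35 mM glucose. Points are libraries, long horizontal bars are means and vertical bars are SDs of 3 libraries. The 35 mM libraries lie above all others for Gast and Slc5a10, while Aass and Tnfrsf11b have their highest mean at 20 mM.

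Among genes of the mature beta cell, which dedifferentiation lowers by definition, Iapp and Pcsk1 rose and Trpm5 fell at 35 mM, and most did not pass. The list held 22 genes, of which 18 were tested. Of these 2 rose, 1 fell and 15 did not pass at 35 against 11.8 mM, where 0.863% of all genes were called. In that comparison 9 of the 18 had a positive log2 fold change, and the median was -0.07. The 35 mM libraries lay wholly above the 11.8 mM ones for 5 and wholly below for 4, against 8.22% and 6.69% of all genes. This list was chosen with earlier results of these data known, so its counts are a description. At 20 against 11.8 mM 1 rose and 0 fell, against 0.185% of all genes called, and at 35 against 20 mM 0 passed, against 0.0308%. Iapp, the amyloid hormone released with insulin, averaged 21159 ± 564 CPM at 35 mM and 13711 ± 434 CPM at 11.8 mM (log2 fold change 0.63 ± 0.13, adjusted p = 0.00865 by edgeR's quasi-likelihood test). Its call was lost without 11.8 mM replicate 2 (adjusted p = 0.0503) and without 35 mM replicate 2 (0.0567). Pcsk1, a convertase that cuts proinsulin, averaged 124 ± 5.58 CPM at 11.8 mM, 210 ± 30.0 CPM at 20 mM and 199 ± 12.7 CPM at 35 mM. It rose at 35 mM (log2 fold change 0.68, adjusted p = 0.005) and at 20 mM (0.75, adjusted p = 0.00543) against 11.8 mM, the second not called without 20 mM replicate 1 (adjusted p = 0.0849).

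Trpm5, a cation channel that supports insulin secretion and lies next to Cd81 on chromosome 7, fell at 35 mM, to 21.7 ± 3.14 CPM, against 41.3 ± 2.91 CPM at 11.8 mM. Its log2 fold change was -0.93 ± 0.17 with adjusted p = 0.00323 by edgeR's quasi-likelihood test, and the call was lost without 35 mM replicate 1 (adjusted p = 0.0544). Trpm5 shares 220 exon bases with Tssc4 on the opposite strand. Ucn3, a hormone that marks mature beta cells, the glucose transporter gene Slc2a2 and G6pc2, also on this list, are named after their values were seen. Ucn3 averaged 418 ± 52.3 CPM at 11.8 mM, 322 ± 45.9 CPM at 20 mM and 312 ± 9.80 CPM at 35 mM, with a log2 fold change of -0.42 ± 0.13 at 35 against 11.8 mM with adjusted p = 0.178. Slc2a2 averaged 109 ± 24.6 CPM at 11.8 mM, 88.6 ± 15.3 CPM at 20 mM and 89.7 ± 5.36 CPM at 35 mM, with adjusted p = 0.542 at 35 against 11.8 mM. G6pc2 went the other way, with 1328 ± 303 CPM at 11.8 mM, 1946 ± 412 CPM at 20 mM and 1987 ± 143 CPM at 35 mM. Its 20 and 35 mM libraries lay wholly above the 11.8 mM libraries, but it was not called. For 35 against 20 mM the smallest p of the list were those of the zinc transporter Slc30a8 (log2 fold change -0.41 ± 0.13) and the transcription factor Isl1 (log2 fold change -0.32 ± 0.14).

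The genes whose levels were most like those of a marker over the 9 libraries were taken for the 3 markers with the smallest p of the F test, by Pearson's r of log2 CPM among 5308 genes that averaged 10 CPM or more. Libraries share their culture condition and their depth, and the highest of so many correlations over 9 libraries are high by selection, so these are descriptions. For Gc they were Rgs17 (r = 0.95), Hif1an (r = 0.92) and Ttyh1 (r = 0.90). None of those 3 was called at 35 or 20 against 11.8 mM. For Serpina7 they were Tusc1 (r = 0.94), Nynrin (r = 0.93) and Mgat2 (r = 0.92). Nynrin was called at 35 against 11.8 mM, with a log2 fold change of 1.03 ± 0.19 and adjusted p = 0.00265 by edgeR's quasi-likelihood test, and in all 17 alternative settings. It shares 4245 exon bases with the noncoding gene Gm26751 on the opposite strand. For Aldh1a3 they were Npm3 (r = 0.95), Dnttip1 (r = 0.94) and Alcam (r = 0.92), of which none was called.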

How the data were processed

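RNA of 9 islet samples was made into CEL-Seq2 libraries from 3 ng of RNA with a 6-base molecular identifier, per the labels' protocols. The authors deposited raw counts of reads for each gene in each sub-library. Per the submitters' processing notes, the tools were cutadapt, TopHat, HTSeq and DESeq2 and the build was GRCm38.p4, with versions, annotation and counting strand not given in the sources used here. Counts were not collapsed by identifier, since 16 genes exceeded the 4096 possible ones, and limits from counts of 0 therefore cover counting error only. The 27 sub-libraries were summed to 9 libraries by the deposited sample sheet. Another 30 columns, whose names match no sample label, were not used. Spike-ins (92) and 5 summary lines, which held 19.6% to 29.9% of counted reads, were left out. Of 22048 genes, 21781 had a symbol in GENCODE M21, the source of coordinates. Exon overlaps are unions over transcripts.

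Tests used R 4.3.3 and edgeR 4.0.16 with TMM, filterByExpr by group, one mean for each concentration (9 libraries, 6 residual degrees of freedom), the robust quasi-likelihood test and Benjamini-Hochberg adjustment over 9739 genes. Standard errors were taken as the log2 fold change over the square root of F. In a comparison of 2 groups with 3 libraries each, exact permutation could reach no p below 0.1. The fit was also run on simulated counts whose spread was taken from these data. That run was a check of the code and is no measure of power for the markers. Replicates of a group differed by 3.14 to 13.7 times the sampling noise (chi-square over degrees of freedom), so no 2 replicates of a group agreed within sampling noise. This does not show that they are separate cultures, since reads were not collapsed by molecular identifier. Alternatives were DESeq2 size factors, no filter, 10 CPM in 3 libraries, the DESeq2 1.42.0 test, a fit without the 20 genes of highest count, leaving out each library, a fit of the 2 concentrations alone and a block for the replicate number. Removal of 1 sub-library, whose insulin share was over 10 percentage points from the others of its sample (35 mM replicate 1), was chosen after seeing the data.

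Markers and gene lists were chosen with earlier results of these data known. The text names the 10 markers, and from each list and comparison up to 4 called genes or the 2 with the smallest p. Ins1, Ins2, Gcg, Mafa, Kcnj11, Glp1r, Pax4, Tm4sf4, Slc5a10, Tnfrsf11b, Ucn3, Slc2a2 and G6pc2 were named outside that rule, after their values were seen.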

Additional observations from a re-analysis of the deposited data

How the results depend on the processing

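Depth limits the markers: Myc and Mycl stayed under 3 counts a library, and Serpina7 and Neurog3 had at most 19. Without an expression filter, 148 genes were called at 35 against 11.8 mM, 51 at 20 against 11.8 mM and 126 by the F test, in place of 84, 18 and 59. The DESeq2 test called 65 genes at 20 against 11.8 mM, where its independent filtering left 800 genes with an adjusted p and Gc as the 1 marker among them, and 89 genes over the 3 concentrations, of 6376. A fit of only the 2 concentrations called 11 genes at 20 against 11.8 mM. The count of markers called moved to 1, Gc, without a filter and with DESeq2, both at 20 against 11.8 mM and over the 3 concentrations. With each library left out in turn it was 0 to 1 at 35 against 11.8 mM, 0 to 1 at 20 against 11.8 mM, 0 to 0 at 35 against 20 mM and 0 to 1 over the 3 concentrations. The genes called ranged from 41 (without 35 mM replicate 1) to 138 (without 11.8 mM replicate 1) at 35 against 11.8 mM, from 7 (without 20 mM replicate 1) to 35 (without 11.8 mM replicate 2) at 20 against 11.8 mM, from 1 to 7 at 35 against 20 mM and from 34 to 75 over the 3 concentrations. The cause was not tested.

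Uncalled values changed sign in some of these leave-one-out fits. The log2 fold changes then ranged at 35 against 11.8 mM from -0.69 to 0.42 for Neurog3, from -0.52 to 0.19 for Sox9 and from -0.84 to 0.081 for Vim. At 20 against 11.8 mM they ranged from -0.17 to 0.41 for Fev, from -0.41 to 0.24 for Sox9 and from -0.090 to 0.11 for Cd81. At 35 against 20 mM they ranged from -0.093 to 1.02 for Neurog3, from -0.55 to 0.30 for Sox9, from -0.37 to 0.55 for Vim, from -0.14 to 0.050 for Pcsk1, from -0.20 to 0.085 for Odc1 and from -0.027 to 0.18 for Ttr.

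Deviations of same-numbered libraries correlated at -0.146 to 0.046, which showed no pairing by replicate number. Such correlations over many genes cannot exclude it for some libraries or genes. With the number as a replicate block, 0 markers were called in any comparison, and the genes called were 74 at 35 against 11.8 mM, 13 at 20 against 11.8 mM, 3 at 35 against 20 mM and 51 over the 3 concentrations. Among the other named genes the block ended the calls of Odc1 at 35 mM (adjusted p = 0.0535) and Ttr at 20 mM (adjusted p = 0.109) against 11.8 mM.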
